A study of Mus musculus with 37 samples.

Results

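Matrix metalloproteinases are zinc-dependent endopeptidases that cut collagens, laminins and other matrix proteins, and the tissue inhibitors of metalloproteinases (TIMPs) block them. Most of these enzymes are made as inactive precursors in which a cysteine occupies the zinc of the active site until it is displaced, and the membrane-type enzymes stay anchored at the cell surface. In the liver they are known from the remodelling of matrix around hepatocytes, sinusoids and portal tracts after tissue loss and during scarring. The 10 genes described here are 3 inhibitors (Timp1, Timp2, Timp3), 2 membrane-type proteases (Mmp14, Mmp15) and 5 secreted proteases (Mmp2, Mmp9, Mmp12, Mmp13, Mmp19). They were picked by gene symbol, with earlier results of these data known, and each of the 10 was found among the 55487 genes of the deposited count table.

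The study removed part of the liver (partial hepatectomy) from WT mice and from mice labelled NOX4-/-, which lack the NADPH oxidase Nox4, an enzyme that produces reactive oxygen species, and sequenced liver mRNA from 37 libraries. WT livers were taken at 6 h (n = 3), 24 h (n = 3), 48 h (n = 4) and 7 d (n = 3), NOX4-/- livers at 6 h (n = 3), 24 h (n = 4), 48 h (n = 4) and 7 d (n = 3), and each genotype had 5 sham livers. The WT sham livers, replicates 1 to 5, were collected at 7 d, 48 h, 24 h, 48 h and 6 h, and the NOX4-/- sham livers at 24 h, 48 h, 48 h, 72 h and 6 h. Both sexes were used, but all 6 h livers, sham livers of that time included, were male. Strain, age, the tissue range of the deletion and the kind of deletion are not given in the sources used here, and nothing there says that libraries came from separate animals, so p-values measure the spread between these libraries.

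Libraries held between 26232544 and 48827025 counts. Marker genes of hepatocytes, the main liver cell, were detected in every group (8 of 8), with a summed level of 41882 to 151673 counts per 1000000 (CPM). The Nox4 level ranged from 0.778 to 23.5 CPM in WT libraries and from 0 to 4.98 CPM in NOX4-/- libraries, so the 2 genotypes overlapped in level. Nox4 was also higher in male than in female livers, by 3.58 ± 0.34 (SE) on the log2 scale (edgeR adjusted p = 2.67e-09). In female livers it was 0.778 to 3.36 CPM in WT and 0 to 0.245 CPM in NOX4-/- libraries, which did not overlap, and in male livers 3.95 to 23.5 and 0.325 to 4.98 CPM, which did. Averaged over stages, Nox4 was lower in NOX4-/- livers by a log2 difference of -2.82 ± 0.28 (SE). Stage by stage, the difference had an edgeR adjusted p under 0.05 in sham livers, at 24 h and at 48 h. It did not at 6 h (-2.95 ± 0.66, adjusted p = 0.0577) or at 7 d (-1.81 ± 0.67). The NOX4-/- livers at 24 h were not alike: on the first principal component, which held 30.2% of the variance, replicate 1 scored -23.8 and replicates 2 to 4 scored 63.3, 85.9 and 73.3. The WT 24 h replicate 3 had the largest share of mitochondrial counts, 8.93%. The sham livers taken at 6 h scored 24.9 (WT) and 11.5 (NOX4-/-), against -46.7 to -12.5 for the other 8 sham livers.

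The feature that unites the proteases is the stretch of the catalytic domain whose 3 histidines hold the zinc ion, and it is shown here because it is what the inhibitors cover. The coding sequence of that stretch, 33 bases, was read from the GENCODE M21 transcripts, with the 3 histidine codons in capitals.
Mmp2: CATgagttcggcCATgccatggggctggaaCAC
Mmp9: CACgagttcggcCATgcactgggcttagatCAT
Mmp12: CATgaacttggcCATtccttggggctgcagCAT
Mmp13: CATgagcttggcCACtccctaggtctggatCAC
Mmp14: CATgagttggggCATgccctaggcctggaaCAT
Mmp15: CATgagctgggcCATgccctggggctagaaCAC
Mmp19: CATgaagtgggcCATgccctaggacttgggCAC

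The stretches were located by a pattern of conserved amino acids, so part of their likeness was set by the search. The 7 stretches had the same base at 16 of 33 positions. Identity between pairs ran from 63.6% (Mmp9 with Mmp12 and with Mmp19) to 87.9% (Mmp2 with Mmp15), and the 2 membrane-type enzymes Mmp14 and Mmp15 shared 81.8%. Each of the 7 coding sequences held 1 match to the cysteine-switch motif of the precursor form. The inhibitors wedge their amino-terminal end into this active site. The 27 bases that code for that end of the mature inhibitor follow, with the codons of its 2 cysteines in capitals.
Timp1: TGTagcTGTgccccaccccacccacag
Timp2: TGCagcTGCtccccggtgcacccgcaa
Timp3: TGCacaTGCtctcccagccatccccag

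The 3 inhibitors had the same base at 14 of 27 positions, with pairwise identities of 66.7% (Timp1 with Timp2), 63.0% (Timp2 with Timp3) and 59.3% (Timp1 with Timp3). These stretches too were located by a pattern of conserved amino acids, which set part of their likeness in advance.

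Sham livers show which members an unresected liver transcribed. Levels between genes are compared as CPM per kilobase of annotated exon. In WT sham livers the order was Mmp19 with a mean of 17.2 ± 3.75 CPM per kilobase (SD, n = 5), Mmp15 with 9.57 ± 4.05, Mmp14 with 5.28 ± 1.31, Timp2 with 3.09 ± 0.85, Timp1 with 2.93 ± 2.82 and Timp3 with 1.54 ± 0.64. Mmp2 followed with 0.636 ± 0.195 CPM per kilobase and Mmp9 with 0.270 ± 0.062, and Mmp12 (0.0237) and Mmp13 (0.0209) were near the limit of detection. The ranges of neighbours in this order overlapped, except that every WT sham liver had less Mmp9 per kilobase than any had Mmp2, and less Mmp12 than any had Mmp9. The membrane-type enzymes and Mmp19 therefore stood above the gelatinases Mmp2 and Mmp9, the proteases named for digesting denatured collagen. Mmp13, an interstitial collagenase, had 81 counts over all 37 libraries, 0 to 6 per library and 0 in 6 libraries, and did not pass the filter on low counts, so 9 of the 10 members were tested. Mmp12, the macrophage elastase, passed it with 305 counts in all.

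**Figure D1:**
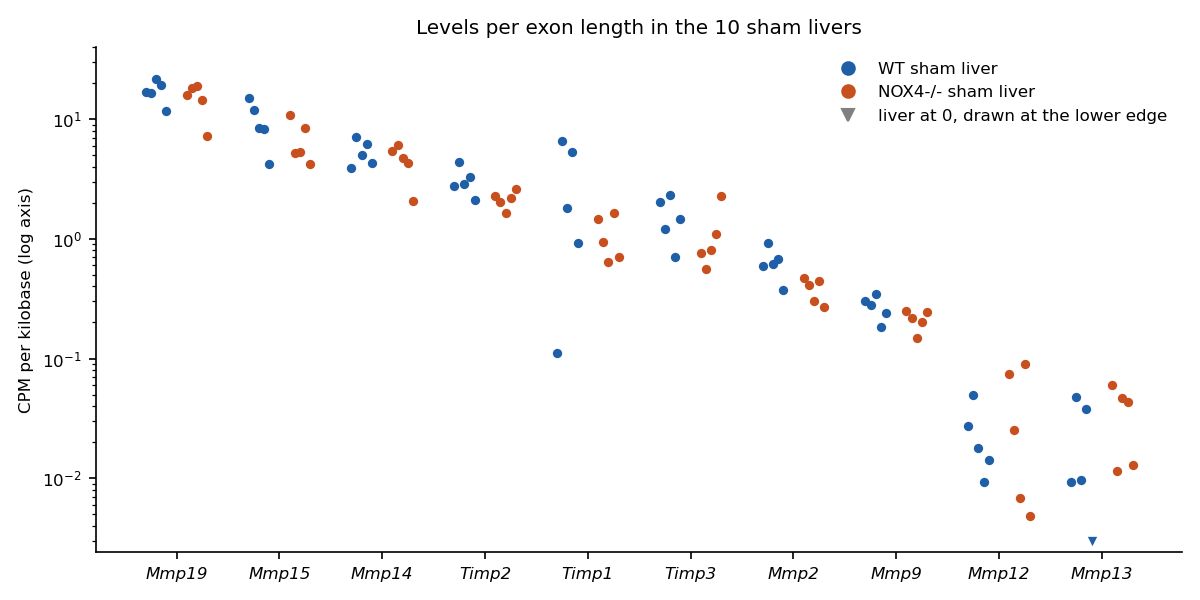
Level of each member in the 10 sham livers, in CPM per kilobase of exon on a log axis, 1 point per liver, blue for WT and orange for NOX4-/-, with genes ordered by the WT mean. Mmp19, Mmp15 and Mmp14 head the order at means of 17.2, 9.57 and 5.28 in WT livers, and Mmp12 and Mmp13 lie lowest. The triangle marks a library with no count.

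In the comparison of each stage with the sham livers of its own genotype, members moved in few comparisons. A gene is said to be called, and to rise or fall, where the quasi-likelihood test of edgeR gave a Benjamini-Hochberg adjusted p under 0.05 over the 15564 genes tested, and that adjusted p is the one printed throughout. Over the 8 such comparisons there were 5 calls: Mmp14 rose in WT livers at 48 h and in NOX4-/- livers at 24 h, Timp3 rose in NOX4-/- livers at 6 h and 24 h, and Mmp15 fell in NOX4-/- livers at 24 h. In WT livers 0 of 9 members were called at 6 h, where 7.86% of all genes were, 0 at 24 h (0.925% of all genes), 1 at 48 h (8.29%) and 0 at 7 d (0%). The 0 at 24 h was also found without WT 24 h replicate 3. In NOX4-/- livers 1 was called at 6 h (6.62% of all genes), 3 at 24 h (28%), 0 at 48 h (3%) and 0 at 7 d (0%). At 24 h in NOX4-/- livers 3 of 9 members is near the share of all genes. Where edgeR called none, the members at an unadjusted p under 0.05 were 4 in WT livers at 6 h (24.7% of all genes), 2 at 24 h (15.5%) and 0 at 7 d, and 0 in NOX4-/- livers at 48 h and 1 at 7 d (3.19%). DESeq2 called 1 member (Mmp15) in WT livers at 6 h and 0 in the other 4 of these comparisons. The median log2 change of the 9 members ran from -0.40 in WT livers at 24 h, where the median of all genes was 0.04, to 0.18 in NOX4-/- livers at 6 h, where it was 0.00. These changes start from different sham levels. In NOX4-/- sham livers 8 of 9 members stood lower than in WT sham livers, none of them called. The median log2 difference was -0.45 for the members and -0.01 for all genes. RNA from whole liver cannot tell fewer cells of a type from less RNA per cell.

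**Figure D2:**
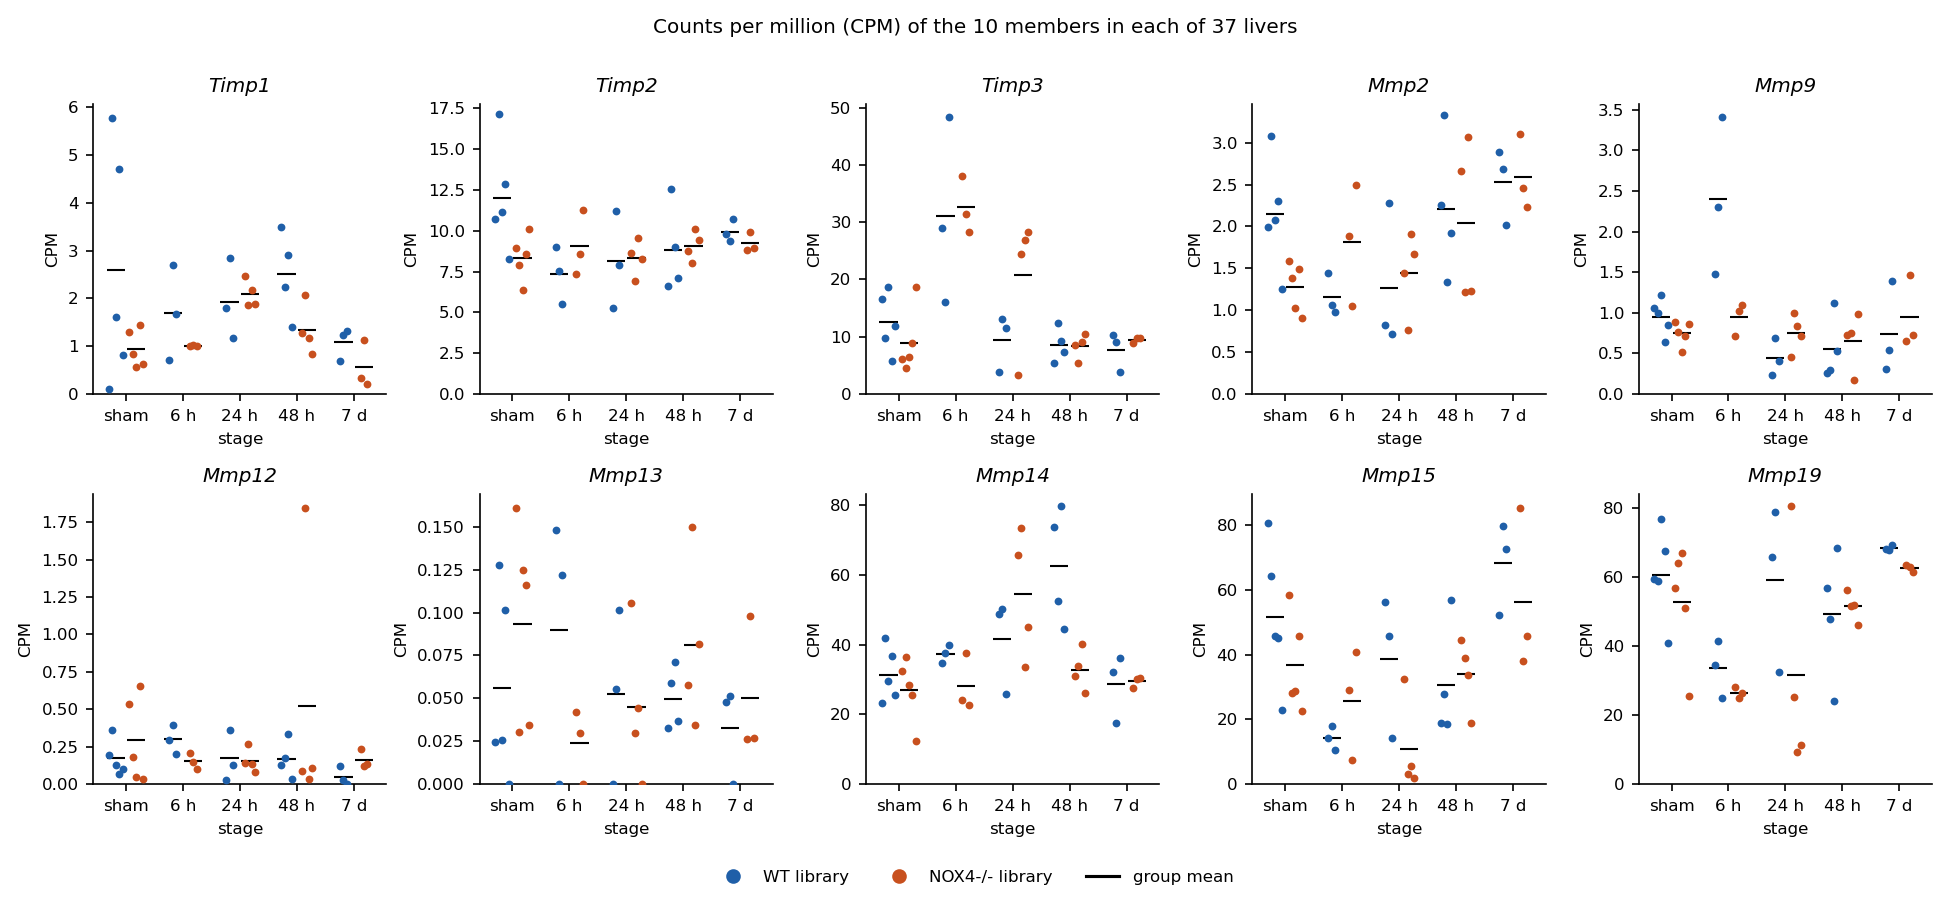
CPM of each of the 10 members in every library by stage, blue for WT and orange for NOX4-/-, with a black line at the group mean and each panel's axis starting at 0. Timp3 is highest at 6 h in both genotypes, Mmp14 at 48 h in WT and 24 h in NOX4-/- livers, and Mmp15 is lowest in 3 of the 4 NOX4-/- livers at 24 h.

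Timp3 is the inhibitor that stays bound to the extracellular matrix after secretion, and it also blocks the sheddases of the ADAM family. The gene lies on chromosome 10 (GRCm38, chr10:86300372-86349506, plus strand), inside the opposite-strand gene Syn3. In NOX4-/- sham livers its level was 6.15, 4.54, 6.53, 8.94 and 18.7 CPM, and in NOX4-/- livers at 6 h it was 38.1, 31.4 and 28.3 CPM. All 3 livers at 6 h lay above every sham liver, and the highest sham liver was the one taken at 6 h. The rise was 3.65-fold, a log2 change of 1.87 ± 0.50 (SE) with an adjusted p of 0.0211. Ranges that did not overlap in the upward direction were found for 8.44% of all genes in that comparison. The call was lost in male libraries alone (log2 change 1.499, adjusted p = 0.0907), without NOX4-/- sham replicate 1 (0.0586) or 2 (0.0527), and without 6 h replicate 1 (0.101). Leaving out the 6 h sham livers instead gave a log2 change of 2.36 with an adjusted p of 0.00339, but that fit holds no sham liver of the same time. Among the livers taken at 6 h alone, both genotypes together, the change from sham was 1.06 ± 0.37 (edgeR adjusted p = 0.301). Syn3 had 470 counts in all libraries against 16925 for Timp3, and the genes share 1733 exonic bases.

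In WT livers Timp3 stood at 16.6, 9.75, 18.8, 5.77 and 11.9 CPM after sham surgery and at 28.9, 16.1 and 48.4 CPM at 6 h. One of the 3 livers at 6 h fell within the sham range. The log2 change of 1.31 ± 0.51 did not pass the test (adjusted p = 0.109). The responses of the genotypes at 6 h differed by 0.55 ± 0.72 on the log2 scale (adjusted p = 1), a 95% interval of -0.85 to 1.96. The summed level of 12 stellate cell and fibroblast markers was 211 to 229 CPM in NOX4-/- livers at 6 h and 150 to 226 CPM in their sham livers, and 191 to 221 against 162 to 230 CPM in WT livers. None of these 12 markers was called at 6 h in either genotype, and their part in the level of Timp3 was not tested.

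At 24 h Timp3 read 3.30, 24.4, 26.8 and 28.3 CPM in NOX4-/- livers. Replicate 1 was below every sham liver and the other 3 were above every one. The change over all 4 was 1.21 ± 0.46 on the log2 scale, at an adjusted p of 0.0497, and without replicate 1 it was 1.55 (0.00372). It no longer passed with another scaling of the libraries (RLE, 0.0507), nor without any single one of sham replicates 1 to 4 or 24 h replicates 2 to 4 (0.0879 to 0.161). In WT livers at 24 h Timp3 was 3.83, 13.2 and 11.5 CPM, within or below the sham range. By 48 h it was 5.49 to 12.4 CPM in WT livers and 5.41 to 10.5 CPM in NOX4-/- livers, and at 7 d it was 3.83 to 10.3 and 8.90 to 9.81 CPM, and it was not called at either stage.

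Timp1 is the secreted inhibitor that is induced in injured liver, and it lies on the X chromosome within an intron of the opposite-strand gene Syn1. The 2 genes share 0 exonic bases. Its level was low and scattered in WT sham livers, at 0.0986, 5.78, 1.61, 4.72 and 0.814 CPM, the lowest of these resting on 4 counts. NOX4-/- sham livers gave 1.29, 0.828, 0.573, 1.45 and 0.6252 CPM and NOX4-/- livers at 24 h gave 2.46, 1.86, 2.17 and 1.88 CPM. Every 24 h liver was above every sham liver there, as for 4.59% of all genes, but the log2 change of 1.05 ± 0.60 did not pass (adjusted p = 0.184). In each genotype the lowest group mean came at 7 d, 1.08 ± 0.34 CPM in WT (SD, n = 3) and 0.561 ± 0.495 CPM in NOX4-/- livers, again without a call.

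Timp2 is the inhibitor that also helps Mmp14 activate the Mmp2 precursor. It lay between 5.28 and 17.2 CPM in all 37 libraries. WT livers had a mean of 12.03 ± 3.30 CPM (SD, n = 5) after sham surgery and 7.36 ± 1.75 CPM at 6 h (n = 3), 8.14 ± 2.96 CPM at 24 h (n = 3) and 8.82 ± 2.70 CPM at 48 h (n = 4). These log2 changes of -0.57, -0.52 and -0.43 each had an unadjusted p under 0.05 and an adjusted p of 0.14995, 0.281 and 0.221, and without WT 24 h replicate 3 the change at 24 h was -0.54 (adjusted p = 0.793). NOX4-/- livers stayed between 8.35 and 9.22 CPM in their means at every stage, and the changes from sham there were within 0.19 on the log2 scale.

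Mmp14, the membrane-type protease that activates Mmp2 and cuts fibrillar collagen, was the member called in both genotypes. The gene lies at chr14:54431612-54445364 (GRCm38, plus strand). WT sham livers had 23.2, 42.0, 29.7, 36.7 and 25.7 CPM and WT livers at 48 h had 73.9, 52.7, 79.9 and 44.5 CPM. All 4 livers at 48 h lay above all 5 sham livers, as for 4.63% of all genes. The rise was 2.05-fold, a log2 change of 1.03 ± 0.27 with an adjusted p of 0.0129. It was called in 13 of 14 alternative analyses and lost without WT 48 h replicate 3 (adjusted p = 0.0608). Of the 10 sinusoidal endothelial markers 3 fell in the same comparison and 0 rose, and their summed level was 68.1 to 160 CPM at 48 h against 157 to 382 CPM in sham livers. Markers of other cells moved there too: 3 of 8 hepatocyte markers fell (Cyp2e1, Serpina1c and Cps1), as did 2 of 8 T and NK cell markers, 1 of 12 stellate cell and fibroblast markers and 1 of 6 B cell markers. Of 11 Kupffer cell markers 1 rose (Marco) and 1 fell (Csf1r), and of 9 monocyte-derived macrophage markers 1 rose (Chil3). The part of these cells in the Mmp14 result was not tested.

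In NOX4-/- livers Mmp14 stood at 32.5, 36.4, 28.4, 25.6 and 12.4 CPM after sham surgery and at 65.6, 73.6, 33.5 and 45.1 CPM at 24 h. One liver at 24 h, replicate 3, fell within the sham range. The rise was 2.001-fold (log2 change 1.00 ± 0.26, adjusted p = 0.00594) and was lost without 24 h replicate 2 (0.0556). Without replicate 1 it was 0.95 (0.00961). At 48 h the NOX4-/- livers were back at 31.1, 33.8, 40.3 and 26.2 CPM, 3 of them within the sham range, with a log2 change of 0.34 ± 0.27 (adjusted p = 0.672). WT livers at 24 h had 48.96, 50.3 and 25.9 CPM, and their log2 change of 0.48 ± 0.29 was not called (adjusted p = 0.441), nor was the 0.71 without WT 24 h replicate 3 (0.722). The highest stage mean thus came at 24 h in NOX4-/- livers (54.4 ± 18.4 CPM, SD, n = 4) and at 48 h in WT livers (62.7 ± 16.9 CPM, n = 4). The genotypes' responses were not shown to differ: the interaction was 0.52 ± 0.40 at 24 h (adjusted p = 0.405) and -0.69 ± 0.38 at 48 h (0.684).

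Mmp15 is another membrane-type protease of the same branch, and its gene lies at chr8:95352268-95375080 (GRCm38, plus strand). NOX4-/- sham livers gave 58.4, 28.2, 28.7, 45.7 and 22.7 CPM, and NOX4-/- livers at 24 h gave 32.3, 3.10, 5.55 and 1.88 CPM. Replicates 2 to 4 were below every other library of the study, and replicate 1 was within the sham range. The fall over all 4 livers was 3.23-fold, a log2 change of -1.69 ± 0.61 (adjusted p = 0.0385). It was lost without sham replicate 1, 3 or 4 or without 24 h replicate 2, 3 or 4 (0.0515 to 0.144), and without replicate 1 it was -3.46 (1.25e-05). In the same comparison 9 of 11 Kupffer cell markers fell and 0 rose, and 7 of 10 sinusoidal endothelial markers fell and 1 rose. The Kupffer marker sum was 384 CPM in replicate 1 and 123, 130 and 190 CPM in replicates 2 to 4, against 337 to 518 CPM in sham livers. The endothelial sum was 106 CPM in replicate 1 and 90.9, 85.4 and 66.5 CPM in replicates 2 to 4, all below the 131 to 229 CPM of sham livers. Of 8 T and NK cell markers 6 fell, as did 3 of 6 B cell markers and 1 of 9 monocyte-derived macrophage markers (Lyz2). One of 8 hepatocyte markers (Tat) and 1 of 7 cholangiocyte markers (Sox9) rose. No stellate cell and fibroblast, neutrophil or mesothelial marker was called. Over all genes 28% were called in this comparison. The part of these cells in the changes of Timp3, Mmp14 and Mmp15 was not tested.

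Mmp15 was also low in WT livers at 6 h, with 14.3, 17.9 and 10.6 CPM against 80.5, 64.4, 45.6, 45.01 and 22.7 CPM in WT sham livers. The ranges did not overlap, which in this direction held for 8.93% of all genes. The log2 change of -1.96 ± 0.70 did not pass in edgeR (adjusted p = 0.0781) and passed in DESeq2 (-1.99, 0.0247). The lowest WT sham liver was the one taken at 6 h. Without the 6 h sham livers, and so with no sham liver of that time, the change was -2.26 at an adjusted p of 0.0273. In all 14 alternatives it kept its sign. Among the livers taken at 6 h alone, both genotypes together, the change from sham was -0.29 ± 0.50 (edgeR adjusted p = 0.845). NOX4-/- livers at 6 h were spread over 29.1, 7.42 and 40.7 CPM, with a change of -0.57 ± 0.64 (adjusted p = 0.662). At 7 d the level was 52.1, 79.7 and 72.6 CPM in WT and 85.4, 37.9 and 45.7 CPM in NOX4-/- livers, in both within or above the sham range and not called.

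**Figure D3:**
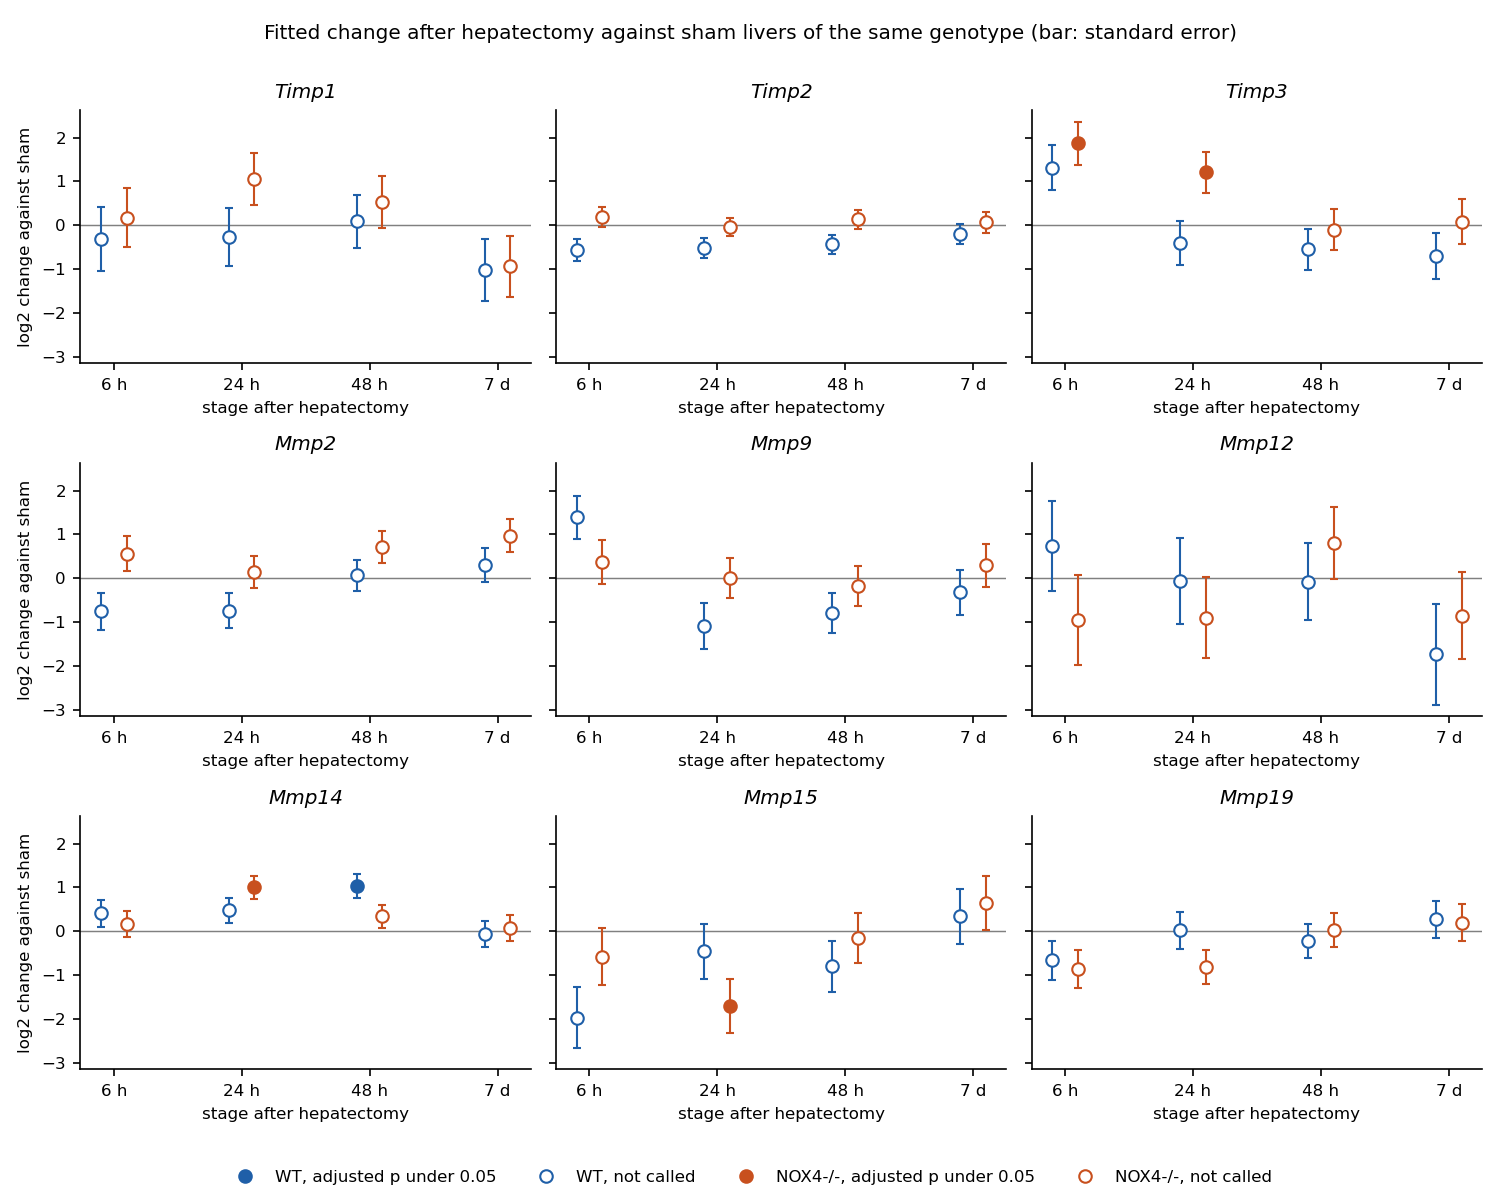
Fitted log2 change of each of the 9 tested members against the sham livers of its genotype at 4 stages, blue for WT and orange for NOX4-/-, with bars of 1 standard error and filled symbols at an adjusted p under 0.05. The 5 filled symbols are Timp3 in NOX4-/- livers at 6 h (1.87) and 24 h (1.21), Mmp14 in NOX4-/- livers at 24 h (1.00) and in WT livers at 48 h (1.03), and Mmp15 in NOX4-/- livers at 24 h (-1.69).

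Mmp19, a secreted protease that cuts basement membrane proteins, had no call. Its 2 lowest values were those of NOX4-/- 24 h replicates 3 and 4, which also had low Mmp15. NOX4-/- livers had 56.7, 64.0, 66.8, 51.1 and 25.6 CPM after sham surgery, and 28.2, 25.0 and 26.3 CPM when taken 6 h after resection. Those taken at 24 h had 80.5, 25.2, 9.23 and 11.3 CPM. Replicate 1 was the highest of all these livers and replicates 2 to 4 were below every sham liver. The change at 24 h was -0.81 ± 0.40 (adjusted p = 0.1197), and -1.78 (0.000149) without replicate 1. WT livers had 59.4, 58.9, 76.7, 67.5 and 40.9 CPM after sham surgery and 34.5, 41.5 and 24.9 CPM at 6 h. In each genotype the sham liver taken at 6 h was the lowest sham liver for Mmp19 and for Mmp15 (22.7 CPM in both). For Mmp19 the 6 h sham value, 40.9 CPM in WT and 25.6 CPM in NOX4-/- livers, lay within the range of the resected livers of that time. Among the 8 livers taken at 6 h, all male, the 6 resected ones were compared with the 2 sham ones in an edgeR model with genotype as a term, added after the data were seen. None of the 9 members was called (0.0257% of all genes were), and 3 had an unadjusted p under 0.05 (12.3% of all genes). The 3 were Mmp14 (0.83 ± 0.26, adjusted p = 0.263), Timp3 (1.06 ± 0.37, 0.301) and Mmp12 (1.68 ± 0.68, 0.359). The change was -0.13 ± 0.22 for Mmp19 (adjusted p = 0.836) and -0.29 ± 0.50 for Mmp15 (0.845). At 7 d Mmp19 was 67.9 to 69.3 CPM in WT and 61.5 to 63.4 CPM in NOX4-/- livers. Mmp19 shares 789 exonic bases with the opposite-strand gene Tmem198b, which had 3264 counts against 67565.

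Mmp9, the gelatinase stored in neutrophil granules, reached its highest level in WT livers at 6 h. The values there were 1.48, 2.30 and 3.41 CPM, against 1.06, 0.999, 1.22, 0.645 and 0.848 CPM in WT sham livers. The ranges did not overlap, as for 8.16% of all genes in this direction, but the log2 change of 1.39 ± 0.50 was not called (adjusted p = 0.0802). NOX4-/- livers had 0.714, 1.02 and 1.0998 CPM at 6 h and 0.523 to 0.886 CPM after sham surgery. In WT livers at 6 h 4 of 10 tested neutrophil markers rose and 0 fell, and the sum of the 11 markers was 28.9 to 73.4 CPM against 4.44 to 15.95 CPM in sham livers, with 1 marker at 0. In NOX4-/- livers at 6 h the sum was 13.1 to 28.2 CPM against 3.79 to 9.55 CPM and no marker was called. The part of neutrophils in the level of Mmp9 was not tested.

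**Figure D4:**
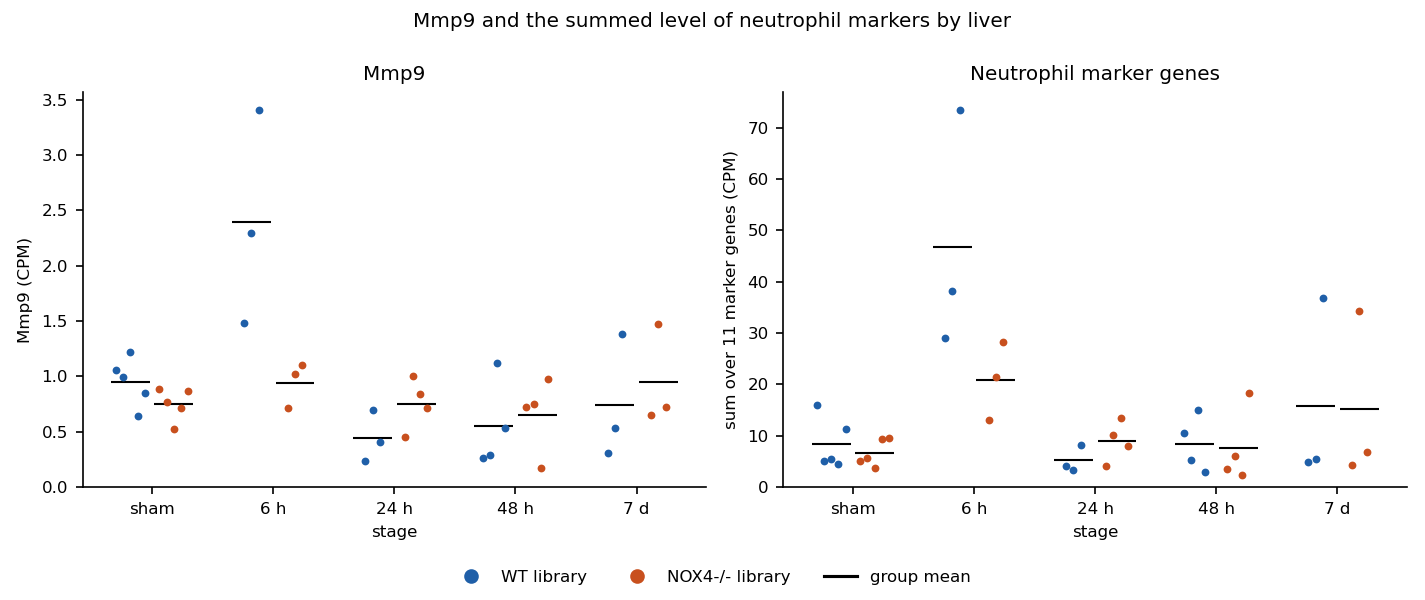
Mmp9 (left) and the summed level of 11 neutrophil marker genes (right), in CPM, for every library by stage, blue for WT and orange for NOX4-/-, with a black line at the group mean. WT livers at 6 h have the highest group mean in both panels, with Mmp9 at 1.48 to 3.41 CPM and the marker sum at 28.9 to 73.4 CPM. The marker sum of WT 7 d replicate 3 (36.9 CPM) and of NOX4-/- 7 d replicate 2 (34.3 CPM) lies within that range.

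Mmp2, the gelatinase made largely by stromal cells, was 1.997, 3.08, 2.07, 2.31 and 1.26 CPM in WT sham livers and 1.58, 1.38, 1.02, 1.49 and 0.903 CPM in NOX4-/- sham livers. Its highest group means came at 7 d, with 2.88, 2.69 and 2.02 CPM in WT and 3.11, 2.45 and 2.23 CPM in NOX4-/- livers, and its highest single value in WT 48 h replicate 2 (3.33 CPM). The genotypes differed by -0.01 ± 0.43 on the log2 scale at 7 d (adjusted p = 1). Each NOX4-/- liver at 7 d exceeded every NOX4-/- sham liver, as for 3.21% of all genes, and the log2 change of 0.98 ± 0.38 had an unadjusted p of 0.0161 but an adjusted p of 1, in a comparison in which 0% of genes were called. Mmp12 lay between 0 and 0.657 CPM in 36 libraries, and NOX4-/- 48 h replicate 2 had 1.85 CPM on 74 counts.

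The comparison of NOX4-/- with WT livers at the same stage asks whether the deletion changed the members. None of the 9 was called in sham livers (0.276% of all genes called), at 6 h (0.116%), 24 h (18.6%), 48 h (0.341%) or 7 d (0.045%), or in the mean over stages (2.72%). Nox4 itself was not called at 6 h or at 7 d. Members at an unadjusted p under 0.05 numbered 1 in sham livers (12.8% of all genes), 1 at 6 h (10.6%), 3 at 24 h (34.9%), 1 at 48 h (11.3%), 0 at 7 d and 1 in the mean (20.3%). DESeq2 called 1 at 24 h (Mmp15) and 0 in the others. Mmp15 came closest in edgeR. WT livers at 24 h had 56.1, 45.7 and 14.2 CPM against 32.3, 3.10, 5.55 and 1.88 CPM in NOX4-/- livers, ranges that overlapped. The difference was -1.78 ± 0.66 (adjusted p = 0.0562, DESeq2 0.0313). It became -3.58 (adjusted p = 2.7e-05) without NOX4-/- replicate 1 and -2.19 (0.0426) without WT replicate 3, the library with the large mitochondrial share. Without NOX4-/- replicate 1, Timp3 (1.49, adjusted p = 0.0171) and Mmp19 (-1.94, 0.000185) were also called at 24 h, and Mmp15 (-0.70, 0.0308) and Mmp19 (-0.51, 0.0224) in the mean over stages.

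At 48 h all 4 NOX4-/- livers had less Mmp14, 26.2 to 40.3 CPM, than any of the 4 WT livers, 44.5 to 79.9 CPM, a separation found for 4.68% of all genes in that direction. The difference of -0.86 ± 0.29 was not called (adjusted p = 0.1997). Mmp9 at 6 h was likewise lower in all 3 NOX4-/- livers (0.714 to 1.0998 CPM) than in any WT liver (1.48 to 3.41 CPM), as for 9.29% of all genes, with a difference of -1.34 ± 0.55 (adjusted p = 0.375). At 7 d Mmp19 was lower in each of the 3 NOX4-/- livers than in any WT liver, and Mmp12 higher (0.123 to 0.235 against 0 to 0.119 CPM), as for 6.55% and 6.38% of all genes, and both had an adjusted p of 1. Timp1 had the largest difference in the mean over stages, -0.75 ± 0.30 with a 95% interval of -1.34 to -0.16 and an adjusted p of 0.159. For Timp2 the same interval was -0.25 to 0.17 and for Mmp14 -0.48 to 0.04, so a 2-fold genotype difference in their mean lay outside the interval.

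The genotype-by-resection interaction tests whether the response to hepatectomy differed between genotypes. No member was called at 6 h, 24 h, 48 h or 7 d, at which 0%, 8.47%, 0% and 0% of all genes were, by edgeR or by DESeq2, and 2, 1, 0 and 0 members had an unadjusted p under 0.05, the 2 at 6 h against 4.59% and the 1 at 24 h against 26.9% of all genes. The largest at 24 h was Timp3, 1.61 ± 0.70 (adjusted p = 0.131). Without NOX4-/- 24 h replicate 1 it was 1.94 (0.0198), with Mmp15 at -2.93 (0.00213) and Mmp19 at -1.75 (0.00566) also called. Without NOX4-/- sham replicate 5, the sham liver taken at 6 h, Timp3 was called alone (2.06, 0.0451). Between male and female livers no member was called (3.59% of all genes were), none by DESeq2 and none at an unadjusted p under 0.05.

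Among livers of the same group, members varied together in some pairs. Of the 36 pairs of the 9 tested members, 4 had a correlation of deviations from the group means, on log2(CPM + 1), that passed in a permutation test within groups with Benjamini-Hochberg adjustment. They were Mmp15 with Mmp19 (r = 0.67, adjusted p = 0.0316), Timp2 with Mmp2 (0.59, 0.0316), Timp1 with Mmp14 (0.45, 0.0316) and Timp3 with Mmp19 (-0.67, 0.0471). Without the 4 NOX4-/- livers at 24 h these became 0.55 (adjusted p = 0.0639), 0.57 (0.0852), 0.49 (0.0518) and -0.45 (0.243), and none passed. Pooled over all 37 libraries, Mmp15 and Mmp19 had a Pearson r of 0.81 and a Spearman rho of 0.74. The Pearson r was 0.77 without the 2 libraries farthest from the median of Mmp15. These pooled values include the differences between groups and are given as a description. Libraries share their scaling factor and total across genes, and the pairs were not corrected for them.

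**Figure D5:**
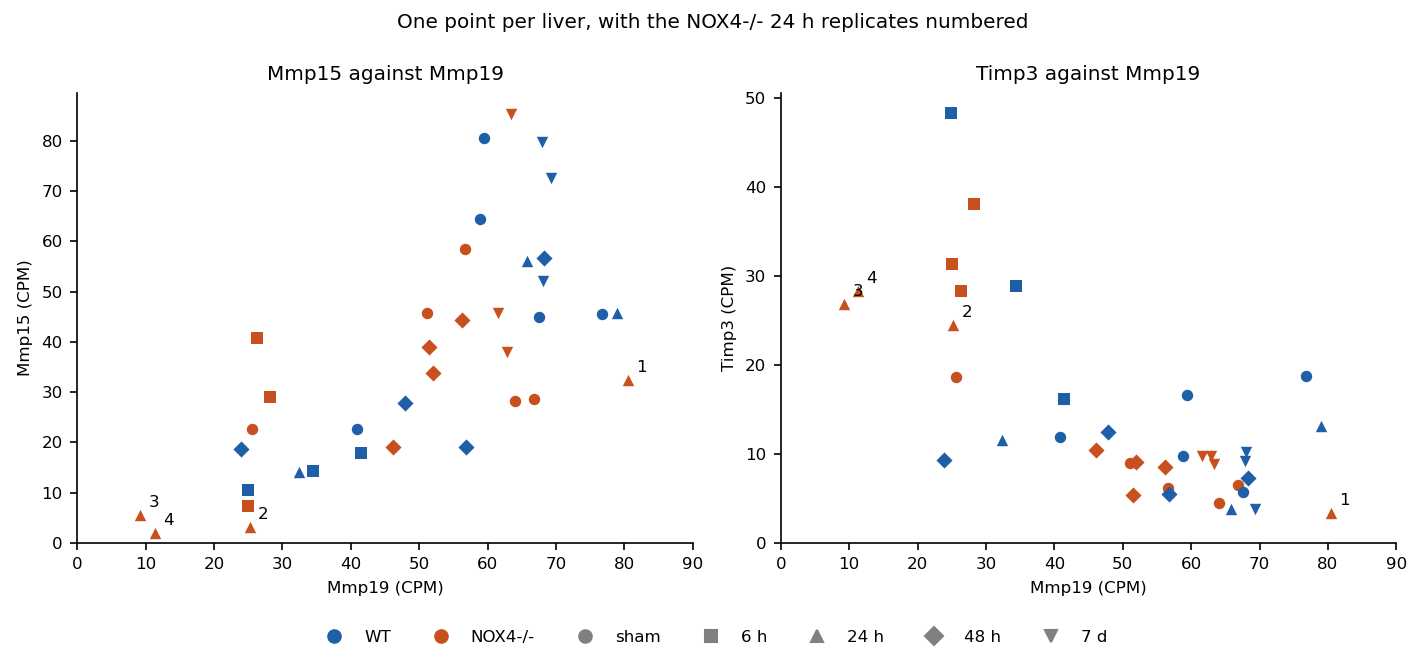
Mmp15 (left) and Timp3 (right) against Mmp19, in CPM, 1 point per library, with colour for genotype, shape for stage, and the NOX4-/- livers at 24 h numbered by replicate. Replicates 2 to 4 lie at 9.23 to 25.2 CPM of Mmp19 with 1.88 to 5.55 CPM of Mmp15 and 24.4 to 28.3 CPM of Timp3, and replicate 1 lies at 80.5, 32.3 and 3.30 CPM.

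The genes whose means over the 10 groups followed a member most closely were sought among 11662 genes with a mean of at least 1 CPM, by Pearson's r of 10 group means on log2(CPM + 1), as a description. For Timp3 they were Cntrl (0.98), Gjb2 (0.97), which codes for a gap junction protein of hepatocytes, and Etv3 (0.97). For Mmp14 they were S100a11 (0.97), Impdh1 (0.94) and Pdzrn3 (0.93). For Mmp15 they included Slc26a1 (0.98), an anion transporter, and Tmem150a (0.98), and for Mmp19 they were Fads6, Rnpep and Parp16 (each 0.99). Mmp2 had 2 genes of connective tissue at the head of its list, Col6a3 (0.94), a collagen VI chain, and Mgp (0.91), the matrix Gla protein, followed by Igfbp5 (0.91). Mmp9 had Ikzf4 (0.95), Gm15459 (0.94) and Tlr13 (0.94). Timp1, Timp2 and Mmp12 had none above 0.91.

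Of the sequence before the start of transcription, RefSeq windows of 250 bases (GRCm38.p6) were found for 7 of the 10 members, 8 windows in all, since Mmp12 has 2. They were searched on both strands for the AP-1 element TGANTCA, which is its own reverse complement and is known from the promoters of collagenase genes. It was found in Mmp13, as TGACTCA beginning 35 bases before the start, and in the second Mmp12 window, as TGAGTCA at 44 bases, and in none of the windows of Timp1, Timp2, Timp3, Mmp14 and Mmp15. Of all 32851 promoter windows 6.75% held it. The Timp2 window and the second Mmp12 window lay inside the annotated extent of their genes. No GENCODE M21 transcript of Mmp12 held the bases after the first start near its beginning, and 2 held those after the second. The upstream sequence of the 3 members that were called is shown, plus strand, ending before the first annotated exon base, because these are the members whose level moved. The windows are chr10:86300162-86300371 for Timp3, chr14:54431348-54431597 for Mmp14 and chr8:95352046-95352267 for Mmp15, and a capital would mark the element.
Timp3: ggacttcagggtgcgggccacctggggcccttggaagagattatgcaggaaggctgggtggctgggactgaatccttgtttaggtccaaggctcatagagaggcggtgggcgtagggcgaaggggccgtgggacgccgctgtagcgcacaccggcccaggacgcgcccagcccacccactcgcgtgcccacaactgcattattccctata
Mmp14: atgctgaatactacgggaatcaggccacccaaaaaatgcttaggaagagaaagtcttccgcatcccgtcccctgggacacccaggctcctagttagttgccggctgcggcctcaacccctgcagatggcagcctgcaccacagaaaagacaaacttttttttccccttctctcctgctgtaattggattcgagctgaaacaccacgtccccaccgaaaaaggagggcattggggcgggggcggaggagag
Mmp15: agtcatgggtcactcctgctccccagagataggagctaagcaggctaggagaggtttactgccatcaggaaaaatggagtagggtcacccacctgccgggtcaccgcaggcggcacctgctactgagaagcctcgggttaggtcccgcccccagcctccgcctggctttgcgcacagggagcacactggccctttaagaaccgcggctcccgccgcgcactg

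The G and C content of the searched windows was 65.6% for Timp3, 55.2% for Mmp14 and 63.6% for Mmp15. The window of Mmp13, whose transcript was near 0 in every library, holds the element close to the start and is printed with it in capitals (chr9:7272264-7272513, plus strand).
Mmp13: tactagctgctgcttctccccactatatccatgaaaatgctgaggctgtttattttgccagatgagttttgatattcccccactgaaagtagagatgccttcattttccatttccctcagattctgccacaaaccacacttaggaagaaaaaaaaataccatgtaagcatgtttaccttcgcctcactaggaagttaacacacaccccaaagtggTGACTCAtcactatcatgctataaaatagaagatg

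Other genes of proteolysis around cells were counted in the same comparisons. Among 17 tested ADAM and ADAMTS proteases, relatives that shed surface proteins or cut proteoglycans, 4 rose and 1 fell in WT livers at 6 h (7.86% of all genes called), 5 rose and 0 fell in NOX4-/- livers at 6 h (6.62%), and 5 rose and 1 fell in NOX4-/- livers at 24 h (28%), the last near the share of all genes. Adamts15, an aggrecan- and versican-cutting protease, rose in all 3, with log2 changes of 3.23 ± 0.52 (adjusted p = 0.000553), 3.11 ± 0.50 (0.000485) and 3.42 ± 0.47 (2.93e-05), and in all 14 alternatives of each. At 24 h it was also higher in NOX4-/- than in WT livers (3.09 ± 0.57, adjusted p = 0.00135).

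The plasminogen system makes plasmin, which can activate several metalloproteinase precursors. Of its 9 tested genes 2 rose in WT livers at 6 h (7.86% of all genes called), 3 in NOX4-/- livers at 6 h (6.62%), and 3 rose and 1 fell in NOX4-/- livers at 24 h (28%). Plat, the tissue-type plasminogen activator, and Plaur, the urokinase receptor, rose in NOX4-/- livers at 24 h by 4.45 ± 0.77 (0.000159) and 3.61 ± 0.72 (0.000571), and without 24 h replicate 1 by 4.88 (4.72e-06) and 4.00 (2.43e-05). Of the other metalloproteinases and Timp4, 9 of 17 genes were tested. Mmp8, the neutrophil collagenase, rose in WT livers at 6 h (3.88 ± 1.05, adjusted p = 0.022), beside the rise of the neutrophil markers, and was not called in male libraries alone or without WT sham replicate 1 or 3 or WT 6 h replicate 3 (0.0524 to 0.249). In NOX4-/- livers 1 of the 9 rose at 6 h (6.62% of all genes called) and 2 at 24 h (28%).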

How the data were processed

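Liver mRNA of 37 libraries was sequenced from a stranded mRNA kit, per the labels' protocols. STAR 2.5.3a, RSEM 1.3.0 and the build GRCm38 are named in the submitters' processing notes; the annotation release and strand setting are not given in the sources used here. The expected counts per gene were deposited by the authors as whole numbers without normalization and are taken here as rounded RSEM estimates. Totals were 26232544 to 48827025 per library. GENCODE M21 (GRCm38) matched 55141 of 55487 identifiers and gave positions and exon lengths. CPM are counts per 1000000 of the TMM-scaled total.

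One edgeR 4.0.16 model (R 4.3.3; robust quasi-likelihood, TMM, filterByExpr, 10 groups plus sex, 37 libraries) gave 19 contrasts, adjusted by Benjamini-Hochberg over 15564 genes at 0.05. The standard error is the log2 change divided by the root of F. Replicates were numbered in accession order. Of 53 replicate pairs, even the closest had 32.07 times the chi-square of sampling noise alone, so none was the same library sequenced again. The check cannot tell libraries of the same liver from libraries of separate livers. On simulated data for the NOX4-/- 24 h comparison, 200 of 15059 genes were changed, with the same spread between libraries for every gene. There 97% of 4-fold and 11% of 2-fold changes were recovered. For the 8 livers of 6 h, with 200 of 15564 genes changed, 65% and 2% were. As alternatives the contrasts were run in DESeq2 1.42.0, with RLE scaling, without the filter on low counts and without sex. They were also run without the sham livers of 6 h. The 6 h contrasts were run in males alone too. Each library was left out in turn for the contrasts that use its group. The members and gene lists were chosen with earlier results of these data known. Named were all members, Nox4 as a label check, up to 3 called genes with the smallest p from each list and contrast, and the 3 genes most like each member. Pairs used 100000 permutations. The values of some genes that the naming rule selected are not reported here.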

Additional observations from a re-analysis of the deposited data

Results flagged for a closer look

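In each group of 4 or 5 libraries, the highest or lowest value of each member was compared with its neighbour relative to the range of the group (Dixon's test). Of 50 such pairs of group and member 3 passed the 95% critical value, and chance passes about 1 in 20. Timp3 in NOX4-/- 24 h replicate 1 was 3.30 CPM, against 24.4 to 28.3 CPM in the other 3 livers. Mmp15 in the same library was 32.3 CPM, against 1.88 to 5.55 CPM. Mmp12 in NOX4-/- 48 h replicate 2 was 1.85 CPM, against 0.0344 to 0.109 CPM in the other 3 livers. In that library the sum of the monocyte-derived macrophage markers was 120 CPM, against 24.2 to 75.3 CPM in the others. Its cholangiocyte marker sum was also the highest, 75.6 against 24.0 to 34.4 CPM, and both lists hold Spp1. WT 48 h replicate 3 and NOX4-/- 7 d replicate 2 had larger macrophage sums, 168 and 157 CPM, with Mmp12 at most 0.333 and 0.235 CPM. The part of these cells in the Mmp12 value was not tested.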

How the results depend on the processing

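Member counts were recomputed under 6 other settings, of which males alone covered the 6 h comparisons only. Each of the 37 libraries was also left out in turn, for the comparisons that use its group. Every member change past the threshold in the report kept its direction in all the fits run for its comparison. Changes that missed the threshold did not all do so: Timp1 in WT livers at 6 h, at -0.30 on the log2 scale, ranged from -0.82 to 1.91 over its 14 alternatives. Without the filter on low counts the members called became 2 in WT livers at 6 h, 2 at 48 h, 2 in NOX4-/- livers at 6 h, 3 between genotypes at 24 h, 1 between genotypes in the mean (Timp1, log2 difference -0.77, adjusted p = 0.00976) and 2 in the interaction at 24 h. DESeq2 called 1 in WT livers at 6 h and 1 between genotypes at 24 h, and leaving out the 6 h sham livers gave 1 in WT livers at 6 h. Male libraries alone gave 0 in NOX4-/- livers at 6 h. Leaving out 1 library moved the count between 0 and 1 for WT livers at 6 h and at 48 h and for NOX4-/- livers at 6 h, between 0 and 4 for NOX4-/- livers at 24 h, between 0 and 3 for the genotypes at 24 h and for the interaction at 24 h, and between 0 and 2 for the mean over stages. The cause was not tested. RLE scaling and the fit without sex moved no member count by over 1.5 times. The comparison of the 6 h livers gave 0 members called with each of its 8 libraries left out. In data simulated for the NOX4-/- 24 h comparison, with 200 genes changed, 11% of 2-fold changes were recovered. In the real comparison 4351 genes were called, which loosens the threshold, so the 11% does not carry over to it. Other group sizes of the 37-library model were not simulated. Mmp12 and Mmp13 were limited by their counts. No paired analysis was possible because the labels give no replicate numbers that link livers across groups.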

Other observations

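The substrates of these proteases, 20 matrix genes, changed in few places. In NOX4-/- livers at 24 h 4 of 20 rose and 0 fell, a share below the 28% of all genes called there. Nid1, the basement membrane linker nidogen, rose by 3.87 ± 0.61 on the log2 scale (edgeR adjusted p = 6.99e-05), and the collagen IV chains Col4a1 and Col4a2 by 1.55 ± 0.35 (0.00172) and 1.29 ± 0.29 (0.00175), each in all 14 alternatives. At 6 h 3 of 20 rose in NOX4-/- livers (6.62% of all genes called) and 1 in WT livers (7.86%). Col4a1 rose at 6 h in both genotypes, by 1.73 ± 0.37 (0.00498) and 1.74 ± 0.38 (0.00663), and Nid1 in NOX4-/- livers by 2.45 ± 0.62 (0.0156, in 12 of 14 alternatives). Nid1 was the 1 of 20 that rose in WT livers at 48 h (3.02 ± 0.59, adjusted p = 0.00226, in all 14 alternatives), where 8.29% of all genes were called. At 24 h Nid1 was higher in NOX4-/- than in WT livers by 3.08 ± 0.72 (0.00569).

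Of 10 lysosomal cathepsins and their inhibitor, which degrade matrix taken up by cells, 1 rose and 1 fell in NOX4-/- livers at 24 h, below the 28% of all genes called there, and 0 rose and 2 fell in WT livers at 48 h (8.29%), Ctsb by a log2 change of -0.81 ± 0.21 (0.0136) and Ctsd by -0.73 ± 0.20 (0.0193). Ctsl rose by 1.23 ± 0.25 (adjusted p = 0.000705) and was higher than in WT livers of that stage by 1.62 ± 0.30 (0.0014), in all alternatives of both. Serpine2, an inhibitor of plasmin and thrombin, was lower in NOX4-/- livers in the mean over stages (-1.26 ± 0.25, adjusted p = 0.00297) and higher in male than in female livers (2.06 ± 0.29, adjusted p = 6.72e-06).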
